A study of Mus musculus with 8 samples.

Results

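The genes described are 36 components of the apoptosis machinery, of 40840 genes listed in each table. They were listed by function, with earlier results of these data known: anti-apoptotic BCL2 proteins, pore-forming effectors, BH3-only proteins, mitochondrial factors, inhibitor of apoptosis proteins (IAPs), caspases, death receptors with their adaptors, and the RIP kinase branch. RNA was sequenced in primary mouse hepatic stellate cells that had become myofibroblastic on culture plastic (pMF-HSCs). The cells came from wild-type male C57BL/6J mice aged 15 to 18 weeks, were purified by sorting on their retinoid autofluorescence and were grown for 7 days. Control cultures received the DMSO vehicle, and OGTi cultures received 50 µM OSMI-1, left on for 24 h. OSMI-1 is a small-molecule inhibitor of the enzyme OGT, which attaches O-GlcNAc to nuclear and cytosolic proteins. There were 4 libraries per group from 4 independent experiments, and control and OGTi libraries of one replicate number came from one experiment. The question was how these genes behaved when O-GlcNAcylation was blocked. With a single compound at a single dose and time, and no genetic loss of OGT in these 8 libraries, effects of OSMI-1 on OGT and on other targets cannot be told apart.

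Apoptosis is run by proteases, the caspases, which are made as inactive precursors. In the mitochondrial route, BH3-only proteins bind anti-apoptotic BCL2 proteins and free the pore-forming effectors, which release cytochrome c and other factors into the cytosol, where APAF1 builds the apoptosome and activates caspase-9. In the receptor route, ligand-bound death receptors recruit FADD and caspase-8, and when caspase-8 is blocked the kinases RIPK1 and RIPK3 can instead drive MLKL to rupture the membrane. In liver fibrosis, death of myofibroblastic stellate cells is one way by which scar-forming cells are cleared.

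The libraries held 30068876 to 37372420 expected counts. OGTi replicate 4 had counts for 23746 genes, against 19035 to 20293 in the other 7. The 10 genes with the most counts took 6.73% to 7.76% of all expected counts in the control libraries and 10.9% to 15.8% in the OGTi libraries. These are shares of counts, and the share in TPM (reads scaled by transcript length and library) was not computed. TPM has a fixed sum per library, so a larger TPM share for some genes leaves less for all others. The listed stellate cell and myofibroblast markers summed to 7200 to 14430.5 TPM in control and 5761 to 14901 in OGTi. Of these 10 markers, 2 fell (Pdgfrb and Lrat) and none rose. Macrophage markers summed to 62.4 to 203.7 TPM in control and 94.6 to 250.4 in OGTi. Ptprc, Adgre1, Clec4f and Marco, 4 of the 10 macrophage markers, stayed below 1 TPM in every library, while Cd68 rose and Cd14 fell. Lyz2, Csf1r, Tyrobp and C1qa were highest in replicate 3 of both groups, Lyz2 at 137.7 TPM in control and 167.5 in OGTi. Tyrobp and C1qa were at no more than 0.38 TPM in replicates 1 and 2 of either group. Cd68 instead was highest in replicate 1 of both groups. Hepatocyte, endothelial and lymphocyte markers summed to at most 3.14 TPM in any library. The cholangiocyte markers summed to 307.2 to 654.5 TPM in control and 128.4 to 563.3 in OGTi, nearly all of it Krt19 and Spp1. Among these markers of other cell types Krt19 fell and Sox9 rose, from at most 1.96 TPM in control to at most 22.9 in OGTi. Tek and Lyve1 fell and Cyp2e1 rose, each at no more than 1.59 TPM in any library. The part of these differences in the results below was not tested.

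Of the 36 genes, 35 had enough counts to be tested, and OGTi changed 5 of them in edgeR's paired quasi-likelihood test at an adjusted p of at most 0.05, which is 14.3%. The same rule called 18.4% of all 19963 genes tested. With limma on log2(TPM + 1) the shares were 37.1% and 23.3%, in the opposite order; that analysis differs in test and library scaling as well as in scale. The gene that rose was Bcl2l11, which encodes the death-promoting BH3-only protein BIM, where 8.13% of all genes rose. The 4 genes that fell were Bcl2, Casp2, Casp12 and Birc3, where 10.2% of all genes fell. Their log2 fold changes ran from -2.52 for Casp12 to 1.72 for Bcl2l11, and the remaining 30 genes did not pass. The median log2 fold change over the 35 genes was -0.25 (interquartile range -0.57 to 0.15), against 0.01 over all genes. Values below 0 were found for 21 of the 35 (60.0%) and for 49.8% of all genes. Within 1.5-fold of control lay 24 of the 35 (68.6%), against 47.0% of all genes tested. An unadjusted p under 0.05 was found for 14 of the 35 (40.0%), against 31.8% of all genes tested, and 9 of the 14 did not pass after adjustment.

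**Figure D1:**
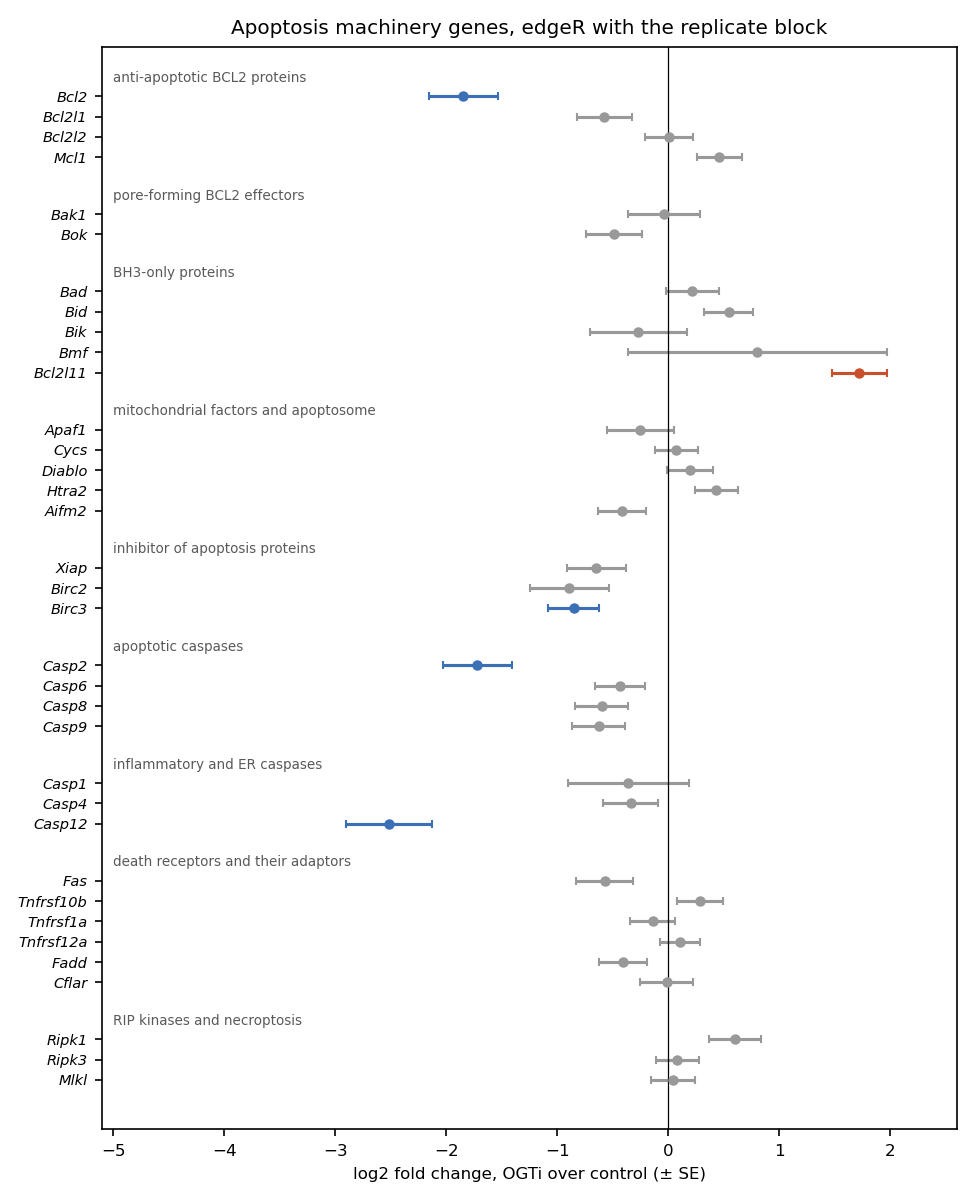
Log2 fold change of OGTi over control for the 35 tested genes, grouped by role. Points are edgeR estimates and bars their SE; blue marks genes that fell, red the gene that rose, and grey genes that did not pass. Bcl2, Casp2 and Casp12 lie below -1 and Bcl2l11 above 1, and all 7 caspases lie left of 0.

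Counts are given below as scaled counts, that is, adjusted for the TMM effective size of each library, so that they compare 1 gene between libraries. Scaled counts of the 2 groups did not overlap for 12 of the 35 genes (34.3%), against 23.5% of all genes tested. These were 4 of the 5 changed genes, with Birc3 the exception, and 8 genes that did not pass. Of those 8, Bcl2l1, Aifm2, Fas and Fadd lay lower in every OGTi library than in any control library, and Mcl1, Bid, Htra2 and Ripk1 lay higher. Each of these 8 also kept its sign in all 13 alternative analyses. In bulk RNA, fewer cells expressing a gene and less RNA per cell cannot be told apart.

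The anti-apoptotic BCL2 proteins hold BH3-only proteins and effectors in check, and 1 of the 4 fell, Bcl2 itself. Bcl2 (chr1:106465908-106642060, minus strand, GRCm39) had scaled counts of 533, 614, 738 and 569 in control replicates 1 to 4 and of 231, 268, 134 and 96.5 in OGTi replicates 1 to 4. Every OGTi library was below every control library, with the lowest control at 533 and the highest OGTi value at 268. The group means were 614 ± 89.6 and 182 ± 80.6 (SD, n = 4 each), which is 3.36-fold lower in OGTi. On the log2 scale this was -1.85 ± 0.31 (SE; edgeR adjusted p = 0.00336), and it stayed past the threshold in all 13 alternatives.

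The promoter of Bcl2 is shown because this was the anti-apoptotic gene that fell. The window runs from 250 bases before to 50 after the annotated start (RefSeq, GRCm38.p6, chr1:106714241-106714540, minus strand, written 5′ to 3′), and capitals mark GC boxes, the letters GGGCGG read on either strand.
Bcl2: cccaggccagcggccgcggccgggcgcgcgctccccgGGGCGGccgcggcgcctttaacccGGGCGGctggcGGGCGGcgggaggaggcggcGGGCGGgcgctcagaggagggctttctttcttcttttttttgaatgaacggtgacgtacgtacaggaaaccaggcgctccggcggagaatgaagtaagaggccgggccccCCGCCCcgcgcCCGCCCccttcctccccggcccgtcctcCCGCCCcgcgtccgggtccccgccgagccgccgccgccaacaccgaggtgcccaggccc
The window held 7 GC boxes and 44 CpG pairs, and 76.0% of its bases were G or C. Over 32841 promoter windows of equal length, 35.7% held a GC box, the median number of CpG pairs was 7 and the median G and C content was 52.7%. These matches describe the sequence and were picked with the results known.

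The other anti-apoptotic genes did not pass. Bcl2l1, which encodes BCL-XL, had scaled counts of 21357, 19759, 23425 and 24130.3 in control and 17831, 19722, 15424 and 8785 in OGTi. All 4 OGTi values lay below the control values, by a margin of under 50 counts between control replicate 2 and OGTi replicate 2, and the log2 fold change was -0.58 ± 0.25 (SE; edgeR adjusted p = 0.137). Mcl1, a short-lived guardian of the mitochondrion, averaged 1238 ± 96.9 in control and 1716 ± 282 in OGTi as scaled counts (SD, n = 4 each), a log2 difference of 0.46 ± 0.21 (SE; adjusted p = 0.155). It passed with DESeq2 and after removal of a transcript-length trend. Bcl2l2, which encodes BCL-W, was at a log2 fold change of 0.01 ± 0.21 (adjusted p = 0.990).

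On the length-corrected TPM scale Bcl2l1 dominated this family in both groups. It made up 91.0% to 92.9% of the summed anti-apoptotic TPM in the control libraries and 84.8% to 90.6% in the OGTi libraries. Bcl2 made up 1.05% to 1.32% in the control libraries and 0.469%, 0.556%, 0.359% and 0.437% in the OGTi libraries. Shares of this kind are ratios within a library and do not depend on how libraries are scaled against each other. Bcl2 was thus a minor transcript of its family in every library, and its share was lower in all 4 OGTi libraries than in any control library.

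BH3-only proteins sense stress and start the mitochondrial route. Of the 6 genes, 5 were tested, 1 rose and none fell. Bcl2l11 (chr2:127967958-128004476, plus strand, GRCm39) had scaled counts of 189.9, 299.9, 268 and 399 in control replicates 1 to 4 and of 928, 907, 639 and 1344 in OGTi replicates 1 to 4. The OGTi libraries all lay above the control libraries, and replicate 4 was highest in each group. The means were 289 ± 86.5 and 954 ± 291 (SD, n = 4 each). The log2 fold change was 1.72 ± 0.25 (SE; edgeR adjusted p = 0.00156), and it was past the threshold in all 13 alternatives, between 1.15 and 2.00.

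RefSeq gives Bcl2l11 a pair of start windows, and the upstream one is shown because it carried a FOXO core, the letters GTAAACA, which forkhead factors are known to bind (GRCm38.p6, chr2:128125788-128126087, plus strand, 5′ to 3′). Capitals mark that core, GC boxes (GGGCGG) and a CCAAT box (CCAAT), each read on either strand.
Bcl2l11: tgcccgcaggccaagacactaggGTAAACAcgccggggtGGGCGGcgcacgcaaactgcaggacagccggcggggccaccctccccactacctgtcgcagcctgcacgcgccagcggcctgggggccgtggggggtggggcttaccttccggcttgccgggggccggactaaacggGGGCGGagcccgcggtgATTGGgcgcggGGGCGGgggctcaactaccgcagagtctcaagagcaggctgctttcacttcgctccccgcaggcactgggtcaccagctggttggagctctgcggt
This window held 1 FOXO core, 3 GC boxes and 1 CCAAT box. A FOXO core was present in 3.65% of all windows, and a CCAAT box in 37.4%. The downstream window (chr2:128127325-128127624) held 3 GC boxes and 2 CCAAT boxes and no FOXO core. A match is a stretch of letters and says nothing of binding in these cells.

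The remaining BH3-only genes did not pass. Bid, which caspase-8 cleaves to link the receptor route to mitochondria, had 1245, 949, 1045 and 1403 scaled counts in control and 2024, 1541, 1769 and 1416 in OGTi. The groups were separated by a narrow margin between the 2 libraries of replicate 4, and the log2 fold change was 0.54 ± 0.22 (SE; adjusted p = 0.121; past the threshold with DESeq2). Bad, which growth-factor signalling keeps inactive, was at 0.22 ± 0.24 (adjusted p = 0.584), and its libraries overlapped. Bik and Bmf were near the detection limit, with mean TPM of 1.67 and 0.0650 in control and 1.04 and 0.0725 in OGTi. Hrk was not tested. It had 2 counts in control replicate 3, 6 in OGTi replicate 4 and none in the other 6 libraries.

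Set side by side per length, Bcl2l11 and Bcl2 changed places. Bcl2 TPM was 4.76, 5.46, 6.74 and 5.39 in the control libraries, and Bcl2l11 TPM was 2.00, 3.21, 3.02 and 4.31. In the OGTi libraries Bcl2 TPM was 1.27, 2.18, 0.960 and 0.730, and Bcl2l11 TPM was 6.83, 8.96, 5.51 and 11.9. Bcl2 exceeded Bcl2l11 in each of the 4 control libraries and Bcl2l11 exceeded Bcl2 in each of the 4 OGTi libraries. The ratio of Bcl2l11 to Bcl2 was 0.564 ± 0.173 in control (SD, n = 4) and 5.38, 4.11, 5.74 and 16.3 in OGTi replicates 1 to 4, so the highest was replicate 4. This pair was set side by side after both changes had been seen, and no test was run on the ratio. Within the 6 listed BH3-only genes Bcl2l11 made up 3.10% ± 0.858 of the summed TPM in control and 8.08% ± 4.06 in OGTi (SD, n = 4 each). Bad and Bid made up most of the rest. The sum over these genes was 100.5 ± 3.61 TPM in control and 107.9 ± 19.6 in OGTi. It leaves out the BH3-only genes Bbc3 and Pmaip1, which were not on this list. Pmaip1 averaged 30.6 ± 2.52 TPM in control and 32.6 ± 17.5 in OGTi (SD, n = 4 each).

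**Figure D2:**
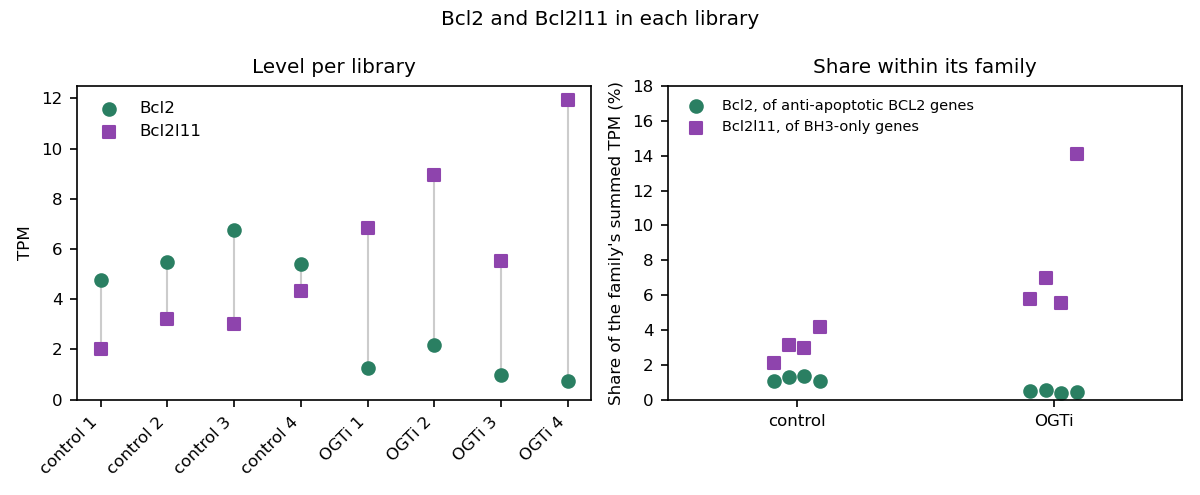
Left, TPM of Bcl2 (circles) and Bcl2l11 (squares) in each of the 8 libraries, with a line joining the pair. Right, Bcl2 as a percent of the summed TPM of the 4 listed anti-apoptotic BCL2 genes, 1 point per library. Bcl2l11 is given there as a percent of the 6 listed BH3-only genes. Bcl2 lies above Bcl2l11 in all 4 control libraries and below it in all 4 OGTi libraries.

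Of the pore-forming effectors, neither Bak1 nor Bok passed. Bok, which can open the outer mitochondrial membrane without the other effectors, had scaled counts of 1756, 2119, 2283 and 1245 in control and 1908, 1144, 1095 and 1143 in OGTi, and the groups overlapped because OGTi replicate 1 lay among the controls. Its log2 fold change was -0.49 ± 0.25 (SE; adjusted p = 0.220). Bak1 was scarce, at 1.91 ± 0.476 TPM in control and 1.49 ± 0.421 in OGTi (SD, n = 4 each), with a log2 fold change of -0.04 ± 0.32.

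Of the 5 mitochondrial and apoptosome genes none passed. Cycs, which encodes cytochrome c, had a log2 fold change of 0.07 ± 0.19 (SE), and Diablo, an antagonist of IAPs, 0.19 ± 0.20. Htra2, a mitochondrial protease that also antagonises IAPs, had 2532, 2444, 2221 and 2249 scaled counts in control and 3524, 3052, 3469 and 2751 in OGTi, higher in every OGTi library, with a log2 fold change of 0.43 ± 0.19 (adjusted p = 0.157). Aifm2, also known as FSP1 and a suppressor of ferroptosis, lay lower in every OGTi library, at -0.42 ± 0.22 (adjusted p = 0.214).

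Apaf1, the scaffold of the apoptosome, depended on 1 library. It had 665, 759.8, 718 and 627 scaled counts in control and 249.9, 868, 783 and 639 in OGTi. OGTi replicate 1 was far below the other OGTi libraries, and without replicate 1 the log2 fold change went from -0.25 to 0.12. The same library was lowest for Birc2, with 172 scaled counts against 656 to 924 in the other OGTi libraries, and for Casp2. In that library the median gene of the shortest of 5 transcript-length classes stood at 0.59 and that of the longest at -0.47 on the log2 scale relative to the other OGTi libraries. With the length trend removed, the log2 fold change was 0.012 for Apaf1, -0.64 for Birc2 and -1.51 for Casp2, which was still called.

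The IAPs bind caspases or, as BIRC2 and BIRC3, tag signalling proteins of the TNF receptor with ubiquitin. All 3 had log2 fold changes below 0, in the main analysis and in each of the 13 alternatives, and 1 passed. Birc3 (chr9:7845790-7873229, minus strand, GRCm39) had scaled counts of 929, 712, 1031 and 1638 in control replicates 1 to 4 and of 441, 459, 748 and 697 in OGTi replicates 1 to 4. Each OGTi library was below its own control, while the groups overlapped between control replicate 2 and OGTi replicate 3. The means were 1078 ± 396 and 586 ± 159 (SD, n = 4 each), 1.84-fold lower in OGTi (log2 fold change -0.85 ± 0.23 SE, edgeR adjusted p = 0.0282). This call rested on the pairing and on all 4 replicates. Without the replicate block the adjusted p was 0.0712, and without replicates 1, 2, 3 or 4 it was 0.0556, 0.0596, 0.0714 and 0.128. The log2 fold change stayed between -0.98 and -0.71 in these fits.

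Birc2 and Xiap did not pass. Birc2, the neighbour and close relative of Birc3, was at -0.89 ± 0.36 (SE; adjusted p = 0.114) and went to -0.45 without replicate 1. It passed when no low-count filter was used. Xiap, a direct inhibitor of caspases, was at -0.65 ± 0.27 (adjusted p = 0.127), with OGTi values of 324 to 429 scaled counts and control values of 399 to 811. Birc2 and Birc3 had no fractional expected counts in any library, so their counting left no split between genes visible. Among the 36 genes only Htra2 and Ripk1 had a fraction, each in 1 library.

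The caspases as a class lay below control. All 7 had log2 fold changes below 0 in the main analysis and in each of the 13 alternatives, with a median of -0.60, although 49.8% of all genes were below 0 and only 2 of the 7 passed. Casp2 (chr6:42241918-42259443, plus strand, GRCm39), an initiator caspase activated in the PIDDosome complex, had scaled counts of 605, 549, 526 and 613 in control replicates 1 to 4 and of 85.0, 256, 204 and 194 in OGTi replicates 1 to 4. The control libraries were close together and every OGTi library lay below them. The means were 573 ± 42.6 and 185 ± 71.8 (SD, n = 4 each), 3.10-fold lower in OGTi. The log2 fold change was -1.72 ± 0.31 (SE; edgeR adjusted p = 0.00444), and -1.37 without replicate 1, still past the threshold. On GRCm39 another annotated gene overlaps Casp2 on its own strand (Gm54541), as also holds for Bcl2l11 (Gm74510) and Bcl2 (Mir3473f).

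The Casp2 promoter window is shown for comparison with those of Bcl2 and Bcl2l11 (RefSeq, GRCm38.p6, chr6:42264735-42265034, plus strand, 5′ to 3′). Capitals mark GC boxes, CCAAT boxes and an E2F match, the letters TTTCCCGC, all read on either strand.
Casp2: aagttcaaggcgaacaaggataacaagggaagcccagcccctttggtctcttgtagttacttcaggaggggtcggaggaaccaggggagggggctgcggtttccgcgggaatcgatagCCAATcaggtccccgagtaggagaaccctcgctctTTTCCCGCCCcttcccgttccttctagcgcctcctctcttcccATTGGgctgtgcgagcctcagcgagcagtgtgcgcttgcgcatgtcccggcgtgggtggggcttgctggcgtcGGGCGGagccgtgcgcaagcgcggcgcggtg
The E2F match shares letters with 1 of the 2 GC boxes, and there are 2 CCAAT boxes. An E2F match was present in 1.07% of all windows. Of these bases 63.7% were G or C.

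Casp12 had the log2 fold change farthest from 0 of the 35 genes in the main analysis. It encodes a caspase of the inflammatory group that lies at the endoplasmic reticulum, and it is found beside Casp1 and Casp4 on the same chromosome (chr9:5345415-5373034, plus strand, GRCm39). Its scaled counts were 189.9, 302, 394 and 435 in control replicates 1 to 4 and 77.8, 69.2, 37.5 and 43.6 in OGTi replicates 1 to 4. The groups were far apart, and the pair with the smallest difference was replicate 1, where the control was lowest. The means were 330.3 ± 109 and 57.1 ± 19.5 (SD, n = 4 each), 5.79-fold lower in OGTi (log2 fold change -2.52 ± 0.39 SE, edgeR adjusted p = 0.00221). The call held in all 13 alternatives, with values from -2.93 to -2.06.

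The Casp12 window is shown because it was unlike the windows above (RefSeq, GRCm38.p6, chr9:5345226-5345525, plus strand, 5′ to 3′). Capitals mark CCAAT boxes, read on either strand.
Casp12: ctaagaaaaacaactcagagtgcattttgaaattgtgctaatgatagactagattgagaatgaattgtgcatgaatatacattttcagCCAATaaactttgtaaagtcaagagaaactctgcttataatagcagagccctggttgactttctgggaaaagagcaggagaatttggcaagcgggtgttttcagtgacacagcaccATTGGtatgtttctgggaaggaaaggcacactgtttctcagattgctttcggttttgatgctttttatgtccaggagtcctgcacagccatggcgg
It held 3 CpG pairs, no GC box and 2 CCAAT boxes, and 41.0% of its bases were G or C. The Birc3 window (chr9:7873121-7873420, minus strand) held none of the letters searched, 7 CpG pairs and 43.0% G and C. The changed genes thus had no motif of those searched in all 6 windows. None of the 6 held an AP-1 match (TGANTCA, present in 7.81% of all windows) or a TATA box (TATAAA, present in 13.6%).

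**Figure D3:**
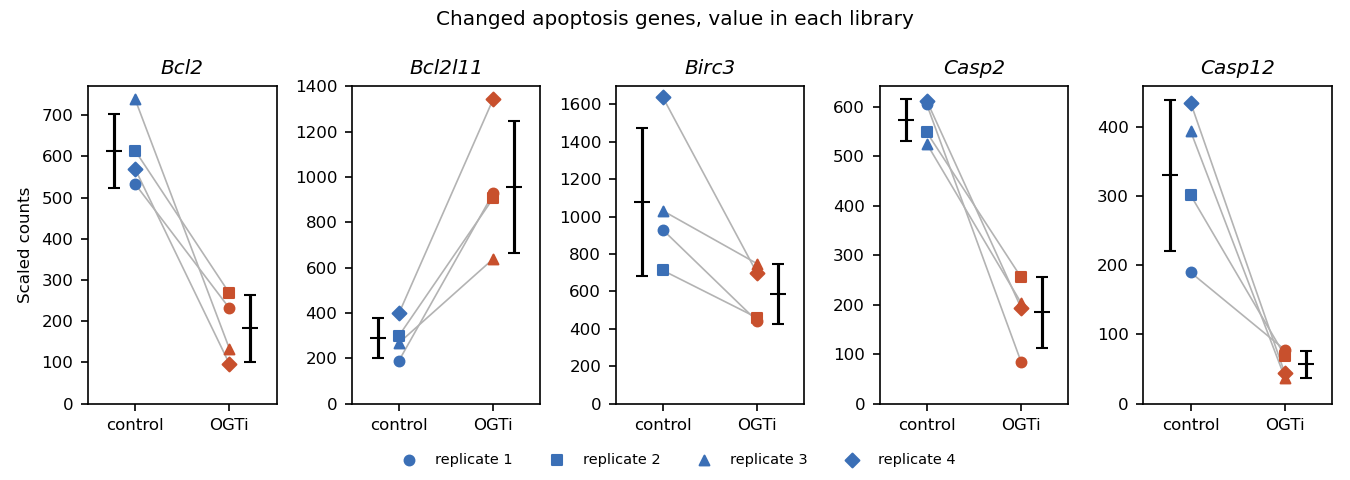
Scaled counts (linear axes from 0) of the 5 changed genes in each library, with a grey line joining the control and OGTi libraries of one replicate. Black marks are group means ± SD (n = 4). Each replicate moved in the same direction for each gene, and only Birc3 has overlapping groups.

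The other caspases did not pass. Casp9, which the apoptosome activates, had 743, 883, 870.2 and 953 scaled counts in control and 422, 814, 608 and 456 in OGTi, lower in 4 of 4 pairs, with a log2 fold change of -0.63 ± 0.24 (SE; adjusted p = 0.0957), and it passed with library totals and on both TPM scales. Casp8, the initiator of the receptor route, had 2463, 2621, 2473 and 2417 in control and 2455, 1779, 1625 and 1030.3 in OGTi. Replicate 1 was nearly equal in both groups, the log2 fold change was -0.60 ± 0.24 (adjusted p = 0.114), and without replicate 1 it passed (adjusted p = 0.0390). Casp6, a downstream caspase, was at -0.43 ± 0.23 (adjusted p = 0.220). Casp4, a sensor of bacterial lipopolysaccharide, had 580, 441, 751 and 903 in control and 561, 208, 721 and 789 in OGTi, lower in each OGTi library than in its own control, by little in replicates 1 and 3, with groups that overlapped (log2 fold change -0.34 ± 0.25 SE, adjusted p = 0.395). Casp1, the inflammasome caspase, was at 0.653 ± 0.235 TPM in control and 0.393 ± 0.0802 in OGTi (SD, n = 4 each).

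None of the 6 genes of death receptors and their adaptors passed. Tnfrsf12a, the receptor for the cytokine TWEAK, was the most abundant of the 36 genes per length, at 1608 ± 712 TPM in control and 1373 ± 683 in OGTi (SD, n = 4 each). Its scaled counts were 22129.6, 10523, 23251 and 34738 in control replicates 1 to 4 and 25093, 12709, 19371 and 41044 in OGTi replicates 1 to 4. Its level followed the replicate more than the group, since replicate 2 was lowest and replicate 4 highest in both groups, and the log2 fold change was 0.11 ± 0.18 (SE; adjusted p = 0.739). The stellate cell markers Dcn, Lum and Tagln were likewise lowest in replicate 2 and highest in replicate 4 of both groups. Reln and the macrophage marker Cd14 had this order in control but not in OGTi. The other listed stellate cell markers, Des, Pdgfrb, Lrat, Col1a1, Acta2 and Hand2, were lowest in replicate 1 of control. The macrophage marker Lyz2 was highest in replicate 3 of both groups. The part of these cells in the order of Tnfrsf12a was not tested.

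Fas and Fadd, the death receptor and its adaptor, both lay lower in every OGTi library. Fas had 317, 393, 482 and 327 scaled counts in control and 304, 297, 209 and 211 in OGTi, which gave -0.57 ± 0.26 as log2 fold change (SE; adjusted p = 0.158). Fadd had 837, 867, 794 and 790.1 in control and 723, 744, 546 and 499 in OGTi, at -0.41 ± 0.22 (adjusted p = 0.225). Both passed on the TPM scales. Tnfrsf10b, the TRAIL receptor of the mouse, was at 0.28 ± 0.21 and Tnfrsf1a, a receptor for TNF, at -0.14 ± 0.21, with overlapping groups for both. Cflar, which encodes the caspase-8 inhibitor c-FLIP, was at -0.02 ± 0.24 and varied by replicate.

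In the necroptosis branch none of the 3 genes passed. Ripk1, the kinase at the fork between survival and death signalling, had 438, 448, 369 and 362 scaled counts in control and 539, 876, 652 and 454 in OGTi. The groups were separated by control replicate 2 and OGTi replicate 4, which differed by under 10 counts. The log2 fold change was 0.60 ± 0.23 (SE; edgeR adjusted p = 0.102), and it passed with DESeq2, with upper-quartile scaling and after removal of the length trend. Ripk3 and Mlkl, the kinase and the membrane-rupturing effector of necroptosis, were abundant and nearly level. Ripk3 was at 163.5 ± 11.1 TPM in control and 138.7 ± 20.8 in OGTi with a log2 fold change of 0.08 ± 0.19, and Mlkl at 151.6 ± 35.2 and 122.3 ± 10.8 TPM with 0.04 ± 0.20 (SD of TPM, n = 4 each). Both had lower mean TPM in OGTi beside log2 fold changes near 0 from counts, and why these scales differ was not tested.

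Per length, the genes spanned a wide range. After Tnfrsf12a came Bcl2l1 at 435.1 ± 45.3 TPM in control, Cycs at 189.2 ± 23.0, Ripk3, Mlkl, and Tnfrsf1a at 105.7 ± 19.6 (SD, n = 4 each). The spreads of Cycs and Ripk3 overlapped, as did those of Ripk3 and Mlkl. The 5 changed genes all had under 20 TPM in control, with Birc3 at 19.5, Casp2 at 8.30, Casp12 at 8.03, Bcl2 at 5.59 and Bcl2l11 at 3.14.

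**Figure D4:**
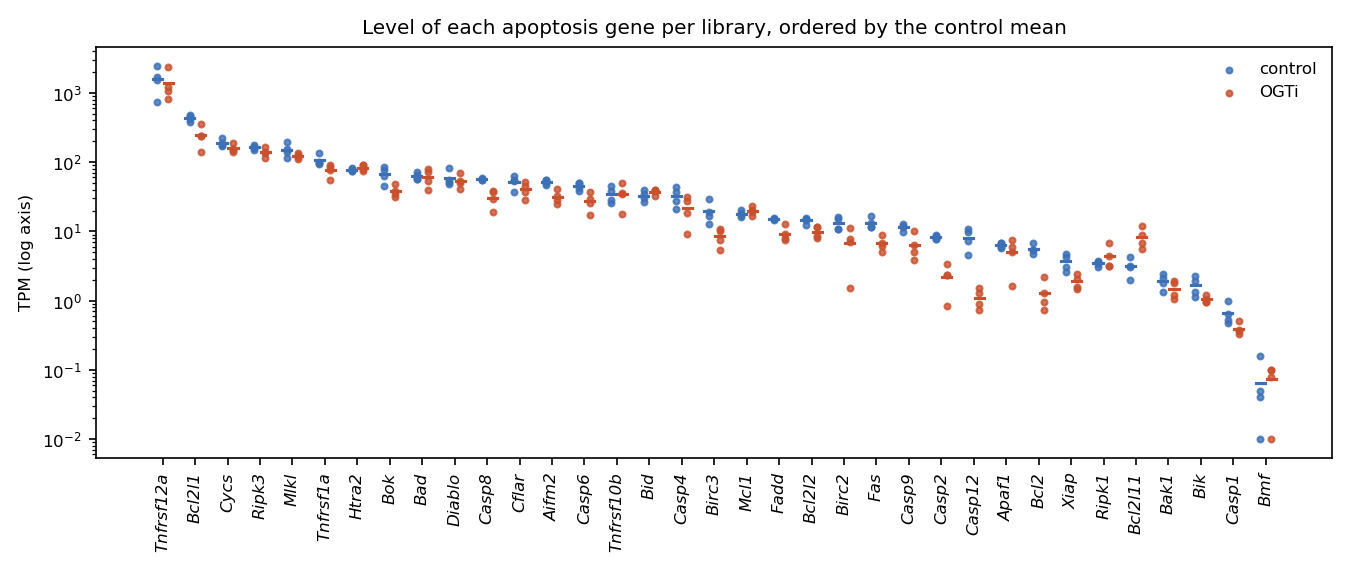
TPM (log axis) of each gene in each library, ordered by the control mean; short lines mark the mean of each group. Hrk is left out because of its low control mean, 0.005 TPM. Casp2, Casp12 and Bcl2 are among several genes lower on this scale in every OGTi library than in any control library, as are Birc3 and Bcl2l1, and Bcl2l11 is higher.

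The tables also give a mean transcript length per gene and library, weighted by the estimated abundance of its transcripts, so that it moves when the mixture of transcripts moves. Of the 28 tested genes with 2 or more transcripts, 3 had lengths that did not overlap between groups, where 6.42% of such genes did overall. Apaf1 averaged 5566, 5558, 5481 and 5552 bases in control and 5261, 5423, 5274 and 5251 in OGTi, shorter in each OGTi library. Bcl2l2 averaged 2563, 2482, 2564 and 2428 bases in control and 2763, 2808, 3027 and 3025 in OGTi, longer in each OGTi library. On GRCm39 the gene Gm20521 overlaps Bcl2l2 on its own strand, and its reads could be counted to either. The lengths of the third gene, Bid, differed by under 4 bases. For all 5 changed genes the groups' lengths overlapped. Cflar, whose long and short protein forms are known to differ in activity, averaged 4226 bases in control replicate 2 and 4311 in OGTi replicate 1 and 5073 to 5769 in the other 6 libraries, and its scaled counts were also lowest in those 2 libraries, at 3051 and 3494 against 4881 to 7097. Length differences of this kind were not tested.

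The rest of the pathway was taken from a list of 57 other apoptosis genes, of which 54 were tested. Of these, 1 rose and 9 fell in edgeR's test, which is 18.5%, close to the 18.4% of all genes, with a median log2 fold change of -0.19. Among the partners of the genes above, Pidd1, the scaffold that activates caspase-2, had 234, 404, 387 and 592 scaled counts in control and 98.3, 172, 106 and 87.3 in OGTi, a log2 fold change of -1.77 ± 0.31 (SE; adjusted p = 0.00405). Cradd, the adaptor between PIDD1 and caspase-2, was at -0.20 ± 0.29 (adjusted p = 0.682).

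Casp14, a caspase of the epidermis, was scarce and fell by 2.26 in log2 units (adjusted p = 0.00325). Dffa and Dffb, the inhibitor and the nuclease of the DNA fragmentation factor, which cuts chromatin in dying cells, fell by 0.81 and 1.24 (adjusted p = 0.0281 and 0.0393). The Dffa and Dffb calls were lost in 4 and 5 of the 13 alternatives, among them the fit without the replicate block. Gsdme, a pore-forming protein of the gasdermin family, fell by 2.00, from 989.8 ± 152 to 246 ± 22.8 scaled counts (SD, n = 4 each; adjusted p = 4.76e-04).

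Of the remaining listed genes, Dapk2, a calmodulin-regulated kinase, fell by 2.01 in log2 units (adjusted p = 5.89e-04). Birc5, which encodes survivin, an IAP family member that also acts in cell division, fell by 1.44 (adjusted p = 0.00245). The Birc5 call was lost in 1 of the 13 alternatives, the fit without the replicate block, and the log2 fold change stayed between -1.81 and -1.32. Tnfrsf1b, the second TNF receptor, fell by 0.92 (adjusted p = 0.0115). Its call was lost in 1 of the 13 alternatives, the fit without replicate 3, and the log2 fold change stayed between -1.24 and -0.66. Naip5, an IAP family member that senses bacterial flagellin, rose by 2.40 from 14.3 ± 6.08 to 74.8 ± 19.8 scaled counts (SD, n = 4 each; adjusted p = 0.00612). Bax, the pore-forming effector beside Bak1 and Bok, had 11145, 11075, 12807 and 12366 scaled counts in control and 9928, 6934, 8074 and 7565 in OGTi. The Bax groups did not overlap, and the log2 fold change was -0.55 ± 0.19 (adjusted p = 0.0701). Bax passed in 5 of the 13 alternatives, with library totals, on both TPM scales, after removal of the length trend and without replicate 1. Bbc3, which encodes the BH3-only protein PUMA, was at 0.85 ± 0.34 (adjusted p = 0.121). Cradd, Bax, Bbc3 and Pmaip1 were singled out after their values had been seen, as partners of genes above.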

How the data were processed

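RNA was measured in 8 pMF-HSC libraries, 4 control and 4 OGTi, sequenced paired-end and stranded after oligo(dT) enrichment. The authors mapped the reads to GRCm39 (mm39) with Bowtie2 2.3.5.1 and deposited, from RSEM 1.3.1, estimated expected counts, TPM and a mean transcript length (in bases, another unit than counts) for 40840 genes per library. The submitters' notes also name DESeq2 1.36.0. The deposited table of the authors' own comparison, with fold changes and p-values, was not used.

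Expected counts were rounded to whole numbers, genes with a total under 10 were dropped, and the remaining genes were fitted in edgeR 4.0.16 (R 4.3.3) with TMM scaling and the replicate number as a block, by the quasi-likelihood test with Benjamini-Hochberg adjustment over all 19963 genes. A gene was called at an adjusted p of at most 0.05. Standard errors are the log2 fold change divided by the square root of F. Scaled counts are counts divided by effective library size, times the mean of that size. Common biological variation (BCV) was 0.342. The scripts were tested on simulated data.

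Replicate numbers mark the 4 independent experiments in the study's methods. Deviations from the group mean correlated at 0.198, 0.280, 0.203 and 0.432 over 12200 genes within numbers 1 to 4, and at -0.489 to 0.280 between numbers. Whether p-values cover more than the spread of these cultures is not known.

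Alternatives were DESeq2 1.42.0, upper-quartile scaling, library totals alone, no filter and a stricter filter on low counts, no block, each replicate left out, limma 3.58.1 with a trend on log2(TPM + 1) and log2(TPM + 0.1), and removal of a length trend. All 36 genes were named by role. Of the other 57 apoptosis genes, those called were named, except 1 result that is not reported here. The genes, lists and motifs were chosen with earlier results of these data known. Gene positions come from GENCODE M39 on GRCm39. Promoter windows of 300 bases come from a RefSeq table on GRCm38.p6, which matched 33 of the 36 genes.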

Additional observations from a re-analysis of the deposited data

Results flagged for a closer look

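For the 35 tested genes, the scaled counts of each group of 4 libraries were searched for a single library set apart, and 4 of 70 groups of values held one by Dixon's criterion, where chance gives about 1 in 20, or 3.5. Bok stood at 1908 in OGTi replicate 1, with the other OGTi libraries at 1095 to 1144. Bik stood at 34.8 in the same library, with the others at 24.1 to 25.4. Diablo stood at 3771 in control replicate 4, with the other control libraries at 2239.8 to 2459.5, and it was also highest among OGTi libraries in replicate 4, at 3862. Tnfrsf1a stood at 5297 in control replicate 4, with the others at 3710.3 to 3845. None of these 4 genes passed edgeR's test between groups (adjusted p of 0.220, 0.727, 0.569 and 0.690).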

How the results depend on the processing

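Bcl2, Bcl2l11, Casp2 and Casp12 were past the threshold in all 13 alternatives, and 24 of the 35 genes kept their direction in all of them. The other 11 reversed in at least 1, and the largest of their main values in size was 0.28. The median log2 difference over all genes moved to 0.13 with upper quartiles, -0.19 with library totals, -0.10 and -0.23 with TPM and the pseudocounts 1 and 0.1, 0.14 without a filter, from 0.01. The share of calls that were higher, 44.3%, became 54.2%, 30.1%, 25.7% and 26.2% with the first 4 of these.

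Genes of the apoptosis machinery that rose numbered 4 with DESeq2, 2 with upper quartiles and 3 after removal of the length trend, instead of 1, the additions being Bid, Mcl1 and Ripk1. Those that fell numbered 12 and 13 with TPM, instead of 4, so that 37.1% and 40.0% of these genes were called against 23.3% and 23.6% of all genes. The TPM additions were Aifm2, Bok, Casp4, Casp6, Casp8, Casp9, Fadd and Fas, and with the pseudocount 0.1 also Bcl2l1. Casp8 and Casp9 also passed with library totals, Casp8 without replicate 1, and Birc2 without a filter. Of the other apoptosis genes, 3 rose with DESeq2, 3 with upper quartiles, 2 without a filter, 2 with the stricter filter, 2 with log2(TPM + 1) and 4 after removal of the length trend, and 14 fell with library totals and 19 with each TPM scale. Over all genes 3456 and 3473 fell with TPM. With each replicate left out, 843 to 1433 genes rose and 1062 to 1744 fell, 1 gene of the machinery rose and 3 to 4 fell, and 1 to 2 of the other apoptosis genes rose and 7 to 11 fell. Without replicate 3 or 4, 843 and 894 genes rose and 1062 and 1062 fell. The alternatives that leave out a replicate used fewer libraries, and for the rest the cause was not tested.

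Without the replicate block, 4 genes of the machinery were called instead of 5. Birc3 was lost (-0.88, adjusted p = 0.0712), as were Dffa, Dffb and Birc5 (adjusted p = 0.0511, 0.0558 and 0.0666), and the block changed no other call among the named apoptosis genes. Dffa and Dffb were also lost with upper quartiles (adjusted p = 0.0594 and 0.0547) and without replicate 3 or 4, Dffb without replicate 2, and Tnfrsf1b without replicate 3 (adjusted p = 0.0620).

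Reversed values were as follows. With library totals they were -0.19 for Bcl2l2, -0.12 for Cycs, -8.00e-04 for Diablo, -0.086 for Tnfrsf12a, -0.11 for Ripk3 and -0.15 for Mlkl. With TPM and the pseudocounts 1 and 0.1 they were -0.51 and -0.55 for Bcl2l2, -0.091 and -0.093 for Bad, -0.25 and -0.25 for Cycs, -0.13 and -0.14 for Diablo, -0.040 and -0.043 for Tnfrsf10b, -0.22 and -0.22 for Tnfrsf12a, -0.25 and -0.25 for Ripk3, and -0.28 and -0.28 for Mlkl. Bcl2l2 was at -4.58e-04 without a filter. Bak1 was at 0.0075 with DESeq2 and 0.085 with upper quartiles. Cflar was at 0.033 with DESeq2, 0.11 with upper quartiles, 0.022 with the stricter filter and 0.27 after removal of the length trend, which put Apaf1 at 0.012. With replicates left out, values ran from -0.050 to 0.10 for Bcl2l2, -0.18 to 0.15 for Bak1, -0.38 to 0.12 for Apaf1, -0.073 to 0.19 for Cycs, -0.23 to 0.18 for Cflar, -0.049 to 0.19 for Mlkl and -0.47 to 0.050 for Cradd.

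Casp1, Bmf, Bik and Hrk had too few reads for small differences to be detectable. Without any filter Hrk was among the 36 genes fitted, and Bmf had no value with the stricter filter.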
